A study of Mus musculus with 12 samples.

Results

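The nicotinic acetylcholine receptor genes that hair cells of the newborn cochlea express include those of the efferent receptor and some of those of skeletal muscle. The 9 genes described here were chosen by name and matched by gene symbol to the 55416 gene identifiers of the count data. Chrna9 and Chrna10 encode the efferent receptor. Chrna1, Chrnb1, Chrnd, Chrng and Chrne encode the muscle-type receptor, and Rapsn and Musk encode proteins that gather that receptor at the neuromuscular junction. All 9 were found, and 5 of them had enough counts to be tested between the cell types.

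Bulk RNA-seq was available for 12 pools of hair cells sorted from the organ of Corti of wild type mice at P0, of which 6 held inner hair cells (IHCs) and 6 held outer hair cells (OHCs). IHCs were sorted by Atoh1-GFP, a GFP reporter at the gene of the hair cell transcription factor Atoh1, and OHCs by Atoh1-GFP together with R26-TdTomato switched on through Insm1-GFP-Cre. Each pool combined cells of several pups, and neither the number of pups per pool nor whether pools shared litters is given in the sources used here. P-values therefore measure the spread between these pools, part of which may be technical.

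Nicotinic receptors are ion channels built of 5 subunits around a pore. In hair cells, receptors of the alpha9 and alpha10 subunits admit calcium when efferent fibres from the brainstem release acetylcholine, and the calcium opens potassium channels that inhibit the cell. Efferent fibres contact IHCs transiently before the onset of hearing and contact OHCs in the adult. The fetal muscle receptor joins alpha1, beta1, delta and gamma subunits, and epsilon takes the place of gamma in mature muscle. Rapsyn binds the muscle receptor from inside the cell, and MuSK is the receptor kinase through which motor nerves direct its clustering.

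Each IHC library held 31490204 to 44017309 counts on genes, and each OHC library 29564827 to 39121988. Levels are given as CPM, counts scaled to a common library size, on which scale 3 counts were worth 0.0733 to 0.196 CPM in an IHC library and 0.0647 to 0.1001 CPM in an OHC library. IHC replicate 1 stood apart, with 56.9% of its counts on ribosomal RNA genes against at most 37.0% in the other libraries. Its library size for this scaling was also the smallest, 15289551, so a given count was worth the most CPM there. All 3 IHC markers examined (Tbx2, Fgf8 and Slc17a8) were higher in IHCs, and 3 of 4 OHC markers (Insm1, Bcl11b and Neurod6, but not Ikzf2) were higher in OHCs. Among 13269 genes tested with edgeR's quasi-likelihood test, 3.81% were called higher in IHCs and 2.44% higher in OHCs at a Benjamini-Hochberg adjusted p-value under 0.05. All 6 IHC libraries lay above all 6 OHC libraries for 2.37% of these genes, and the reverse held for 2.22%. Of the 9 receptor genes, 2 were called higher in IHCs and 0 higher in OHCs.

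Chrna1 and Chrng were the 2 genes called. Both were expressed in every library, both were several-fold higher in IHCs, and for both the lowest IHC library lay above the highest OHC library. Chrnb1 and the efferent subunit genes Chrna9 and Chrna10 were present in every library of both cell types and did not pass the test. Chrnd, Chrne and Musk were at or near 0, and Rapsn was detected in all IHC libraries at widely differing levels.

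**Figure D1:**
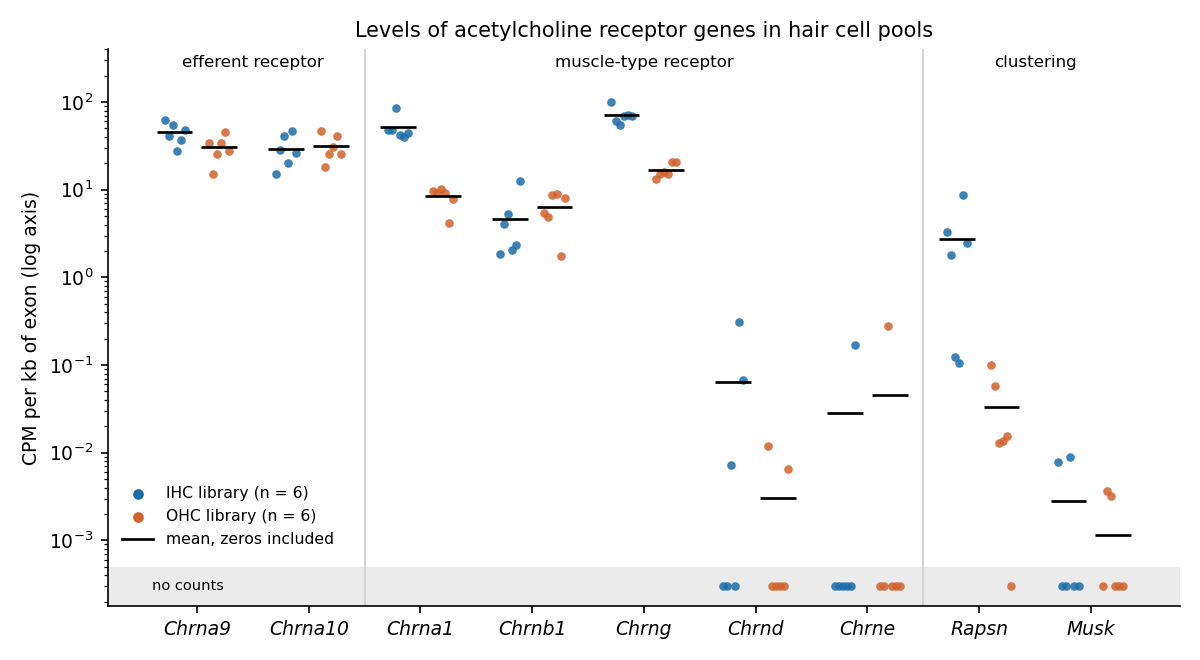
Level of each of the 9 receptor genes in each library, as CPM per kilobase of annotated exon on a log axis, with IHC libraries in blue, OHC libraries in orange and bars at the mean of 6 libraries. Points in the grey band had no counts. Chrna1, Chrng and Rapsn are the 3 genes whose IHC libraries all lie above the OHC libraries, while Chrnd, Chrne and Musk sit near 0 in both cell types.

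Levels of different genes were compared as CPM per kilobase of exon. In IHCs, Chrng had the highest level of the 9 genes, 71.0 ± 15.7 CPM per kb (SD, n = 6), followed by Chrna1 at 51.3 ± 16.7, Chrna9 at 44.98 ± 12.7 and Chrna10 at 29.5 ± 11.99. The ranges of neighbours in that order overlapped. Chrnb1, at 4.66 ± 4.06 CPM per kb, lay below Chrna10 in every comparison of 2 IHC libraries, and its range overlapped that of Rapsn, at 2.74 ± 3.18.

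In OHCs the order was different, with the efferent subunits first. The level of Chrna10 is uncertain in both cell types, because its exons overlap those of another gene, as described below. Chrna10 had 31.3 ± 10.9 and Chrna9 30.3 ± 10.1 CPM per kb, levels that overlapped, and the range of Chrna9 also overlapped that of Chrng, at 16.8 ± 3.17. Chrna1, at 8.37 ± 2.18 CPM per kb, lay below Chrng in every pair of OHC libraries and overlapped Chrnb1, at 6.30 ± 2.82. Among tested genes with a known length, 98.4% had a lower mean level than Chrng in IHCs and 90.3% in OHCs, and for Chrna1 the shares were 97.3% and 78.7%.

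The order within IHCs depended on the exon length by which counts were divided. With the coding length alone, Chrna1 came first at 169.9 ± 55.2 CPM per kb, ahead of Chrng at 157 ± 34.6, and with the longest transcript Chrng came first at 106 ± 23.3, ahead of Chrna9 at 73.8 ± 20.9. In OHCs, Chrna9 came first by the longest transcript, at a mean of 49.8 CPM per kb against 31.95 for Chrna10, and by coding length Chrna1, at 13.8 to 33.3 CPM per kb, overlapped Chrng, at 29.01 to 45.8. Comparisons of 1 gene or 1 ratio between IHCs and OHCs do not depend on this choice, because the length cancels.

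Chrna9 encodes the subunit that can form a working channel by itself. Its level in IHC libraries was lowest at 82.8 CPM, with a median of 135 and a highest value of 190.3 CPM. In OHC libraries it ran from 46.2 CPM through a median of 93.3 to 137 CPM. The 2 ranges overlapped, with IHC replicate 1 highest and OHC replicate 2 lowest. IHCs averaged 136 ± 38.6 CPM and OHCs 91.8 ± 30.6 CPM (SD, n = 6 each), a log2 fold change of OHCs over IHCs of -0.57 ± 0.27 (SE) that did not pass edgeR's quasi-likelihood test (adjusted p = 0.220).

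Chrna10 encodes the partner subunit, which does not form a channel by itself. It ran from 40.2 through 71.2 to 122 CPM in IHC libraries, lowest in IHC replicate 1, and from 47.9 through 73.4 to 124 CPM in OHC libraries. The ranges nearly coincided. Its log2 fold change was 0.09 ± 0.30 (SE), with a sign that turned when some single libraries were left out, and edgeR's quasi-likelihood test gave an adjusted p of 0.899. The annotation places Chrna10 on chromosome 7 (GRCm39, chr7:101760473-101766035, minus strand), where 72.7% of its exonic bases are also exonic in Art1, an ADP-ribosyltransferase gene on the opposite strand. The methods name no strand setting for the counting and otherwise refer to program defaults, and no source used here says that the amplified libraries keep the strand. Reads of Chrna10 and Art1 from the shared bases may therefore not be told apart, and the level of Chrna10 is uncertain. Art1 was not called, with 33 to 748 counts in IHC libraries and 104 to 426 in OHC libraries.

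Chrna9 lies on chromosome 5 (chr5:66092264-66134669, plus strand) and shares no exonic base with another annotated gene. The per-length ratio of Chrna9 to Chrna10 within a library does not depend on the library size. It was above 1 in 5 of 6 IHC libraries, from 0.785 in IHC replicate 5 to 4.11 in IHC replicate 1 with a median of 1.41, and from 0.730 to 1.13 with a median of 1.04 in OHC libraries. The geometric means were 1.58 and 0.967, and a two-sided exact permutation test over the 924 arrangements of the labels gave p = 0.0455, or 0.0606 after Benjamini-Hochberg adjustment over the 4 ratios tested. Single libraries decided this comparison. The log2 difference of OHCs from IHCs was -0.71 with all libraries, -0.43 without IHC replicate 1 (adjusted exact permutation p = 0.115) and -0.91 without IHC replicate 5, where the test passed (adjusted exact permutation p = 0.00433). By the longest transcript the geometric means were 2.54 and 1.56. Whether Chrna9 lay above Chrna10 in OHCs, and in how many IHC libraries it did, thus depended on the length used. The ratio also carries the uncertainty in the level of Chrna10 that comes from the bases shared with Art1.

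The regions before the start sites of receptor genes were read because Chrna1 and Chrng were both higher in IHCs. Muscle receptor genes are also known targets in muscle of basic helix-loop-helix factors that bind E-boxes (CANNTG). RefSeq promoter windows on GRCm38.p6 were found for 7 of the 9 genes, all but Chrnd and Rapsn, and the 250 bases before each RefSeq start had 1 match each in GRCm39. Chrna1 and Chrng are shown as the genes that differed between the cell types, Chrna9 as the efferent gene that did not pass the test, and Chrne as a muscle gene that was nearly silent. In these sequences, printed 5′ to 3′ on the strand of the gene and ending at the base before the RefSeq start, capitals mark every CANNTG.
Chrna1: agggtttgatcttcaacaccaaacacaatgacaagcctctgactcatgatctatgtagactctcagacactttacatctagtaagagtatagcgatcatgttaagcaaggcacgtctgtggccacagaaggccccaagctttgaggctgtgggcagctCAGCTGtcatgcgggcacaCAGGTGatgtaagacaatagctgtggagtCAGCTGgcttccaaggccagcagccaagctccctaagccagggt
Chrng: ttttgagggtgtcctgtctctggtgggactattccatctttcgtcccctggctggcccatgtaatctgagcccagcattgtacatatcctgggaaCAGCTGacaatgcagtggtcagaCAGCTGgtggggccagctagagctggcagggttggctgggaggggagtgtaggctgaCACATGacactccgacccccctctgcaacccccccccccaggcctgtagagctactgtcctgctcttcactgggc
Chrna9: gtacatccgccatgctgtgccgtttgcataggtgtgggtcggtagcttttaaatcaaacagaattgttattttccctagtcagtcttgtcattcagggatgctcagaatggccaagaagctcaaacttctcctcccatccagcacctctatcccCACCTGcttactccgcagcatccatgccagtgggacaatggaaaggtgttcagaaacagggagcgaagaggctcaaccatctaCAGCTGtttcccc
Chrne: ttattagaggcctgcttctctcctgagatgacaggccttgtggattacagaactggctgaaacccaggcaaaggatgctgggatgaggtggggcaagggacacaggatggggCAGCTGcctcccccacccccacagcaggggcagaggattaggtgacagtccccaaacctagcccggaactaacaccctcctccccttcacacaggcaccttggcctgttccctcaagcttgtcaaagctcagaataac

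On GRCm39 these windows are chr2:73410683-73410932 on the minus strand for Chrna1, chr1:87133283-87133532 on the plus strand for Chrng, chr5:66124217-66124466 on the plus strand for Chrna9 and chr11:70510021-70510270 on the minus strand for Chrne. The motif CANNTG reads the same on both strands, and CAGCTG is one of its forms. Chrna1 and Chrng each held 3 CANNTG sites, 2 of them CAGCTG. In Chrna1 the CAGCTG sites began 92 and 44 bases before the start, and in Chrng 155 and 132 bases before it.

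Of 32851 RefSeq windows of the same length, 66.2% held at least 1 CANNTG and 12.2% held 3 or more, and 13.0% held at least 1 CAGCTG and 1.26% held 2 or more. Chrna9 held 2 CANNTG sites, of which the 1 that began 13 bases before the start was CAGCTG, Chrne held 1, a CAGCTG, Chrnb1 held 3 and Chrna10 held 2 with no CAGCTG, and Musk held 3 with 1 CAGCTG. Of these genes, Chrne and Musk had almost no counts. Binding at these sites, and any part of it in the levels of these genes, was not tested. The RefSeq start of Chrng lies 1154 bases inside the GENCODE gene and that of Chrna9 lies 32203 bases inside, so other annotated starts exist upstream that these windows do not cover.

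Chrna1 encodes the alpha1 subunit, which carries the main part of the acetylcholine binding site of the muscle receptor. Its level was 183 CPM in the lowest IHC library, with a median of 209.9 CPM and a highest value of 385 CPM in IHC replicate 3. In OHC libraries it was 19.0 CPM at the lowest, in OHC replicate 5, with a median of 41.8 and a highest value of 45.7 CPM. The lowest IHC library lay well above the highest OHC library. The means were 233 ± 75.7 and 38.0 ± 9.91 CPM (SD, n = 6 each), and Chrna1 was 6.13-fold higher in IHCs by edgeR's quasi-likelihood fit, a log2 fold change of -2.62 ± 0.27 (SE) with an adjusted p of 3.89e-06. Of its exonic bases on chromosome 2 (chr2:73393557-73410835, minus strand), 13.2% are shared with Gm30940, a lncRNA annotated on the opposite strand.

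Chrng encodes gamma, the subunit that marks the fetal form of the muscle receptor. It ran from 233 through a median of 292 to 422 CPM in IHC libraries, highest in IHC replicate 1, and from 55.2 through 65.5 to 87.1 CPM in OHC libraries. As for Chrna1, the ranges were well apart. The means were 299 ± 65.8 and 70.5 ± 13.3 CPM, and Chrng was 4.23-fold higher in IHCs, a log2 fold change of -2.08 ± 0.21 (SE) with an adjusted p of 4.18e-06 by edgeR's quasi-likelihood test. Without IHC replicate 1 the log2 fold changes were -2.65 for Chrna1 and -1.97 for Chrng, and both remained past the threshold. Chrng shares no exonic base with another gene on chromosome 1 (chr1:87132379-87140416, plus strand). In bulk pools, fewer cells that express a gene and less RNA per cell cannot be told apart, and this holds for each difference given here.

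Chrnb1 encodes beta1, which the fetal and the adult muscle receptor share. It ran from 4.84 through 8.27 to 32.6 CPM in IHC libraries and from 4.60 through 17.6 to 23.6 CPM in OHC libraries. The highest value of all was in IHC replicate 6 and the lowest in OHC replicate 5, and the ranges overlapped over most of their length. Its log2 fold change was 0.44 ± 0.57 (SE) with an adjusted p of 0.6999 by edgeR's quasi-likelihood test, a direction opposite to that of Chrna1 and Chrng in a difference smaller than its error. Without IHC replicate 6 the log2 fold change was 1.02, and the adjusted p of 0.303 did not pass either.

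Chrnd, the delta subunit gene, had 0 counts in 3 of 6 IHC libraries and in 4 of 6 OHC libraries. IHC replicate 5 held 36 counts and IHC replicate 6 held 9, and no other library held more than 2. Chrne, the epsilon subunit gene of mature muscle, had 11 counts in IHC replicate 6, 18 in OHC replicate 3 and 0 in the other 10 libraries. Both genes were below the count filter and were not tested. In libraries with 0 counts, a level up to that of 3 counts could have been missed. That level was 0.0733 to 0.196 CPM in IHC and 0.0647 to 0.1001 CPM in OHC libraries.

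The muscle-type subunit genes took unequal shares, which like the levels depend on the exon length used. Of the summed per-length level of the 5 muscle-type subunit genes, Chrng made up 56.2 ± 10.2% in IHCs and 53.9 ± 12.5% in OHCs, and Chrna1 made up 40.1 ± 9.65% and 26.6 ± 6.88%. Chrnb1 made up 3.67 ± 3.15% in IHCs and 19.4 ± 7.36% in OHCs. Chrnd made up at most 0.267% in any library, and Chrne at most 0.789%. In the 5 libraries with a count on Chrnd, the level of Chrng was 234 to 7631 times that of Chrnd.

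**Figure D2:**
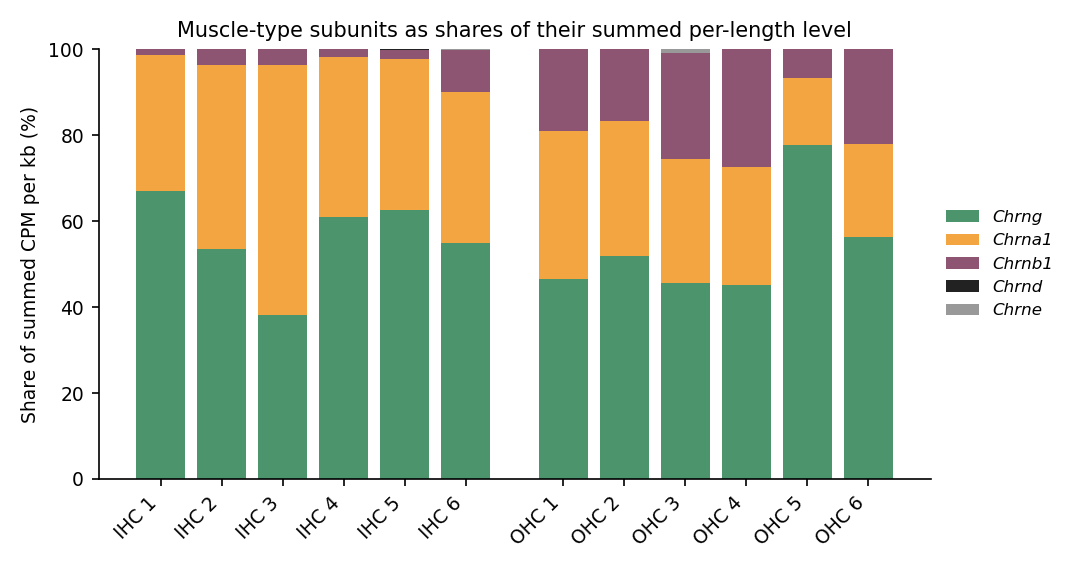
Stacked bars give, for each of the 12 libraries, the share in percent that each muscle-type subunit gene took of their summed CPM per kilobase of exon. Chrnb1 takes 1.24% to 9.79% of the IHC bars and 6.61% to 27.3% of the OHC bars, and Chrnd and Chrne are barely visible.

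Within libraries, the per-length ratio of Chrnb1 to Chrna1 was 0.0389 to 0.279 in IHCs with a median of 0.0595, and 0.422 to 1.03 in OHCs with a median of 0.689. The ranges did not overlap. The geometric mean was 9.41-fold higher in OHCs, 0.690 against 0.0733, with an exact permutation p of 0.00216, the smallest that 924 arrangements can give, and an adjusted p of 0.00433. By coding length the geometric means were 0.350 in OHCs and 0.0372 in IHCs. The ratio combines a gene that was lower in OHCs with one that did not pass the test, and it shows unequal change of the 2 genes.

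The ratio of Chrng to Chrna1 differed less. It was 0.654 to 2.10 in IHCs with a median of 1.604, and 1.35 to 4.96 in OHCs with a median of 1.65. The high end in OHCs was OHC replicate 5, where Chrna1 was lowest, and the ranges overlapped. The geometric means were 1.41 and 2.06 and the exact permutation p was 0.199, unchanged by adjustment. By coding length they were 0.939 and 1.37.

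Chrna9 and Chrna1 were at like levels in IHCs and apart in OHCs. Their per-length ratio was 0.640 to 1.32 in IHCs with a median of 0.875, and 1.64 to 10.8 in OHCs with a median of 3.51. The ranges did not overlap, and the geometric mean was 4.08-fold higher in OHCs (3.58 against 0.876, exact permutation p = 0.00216, adjusted p = 0.00433). Whether Chrna9 lay above or below Chrna1 in IHCs depended on the length used, with a geometric mean ratio of 0.538 by coding length and 1.44 by longest transcript, while the OHC ratio stayed above 1 at 2.19 and 5.87.

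**Figure D3:**
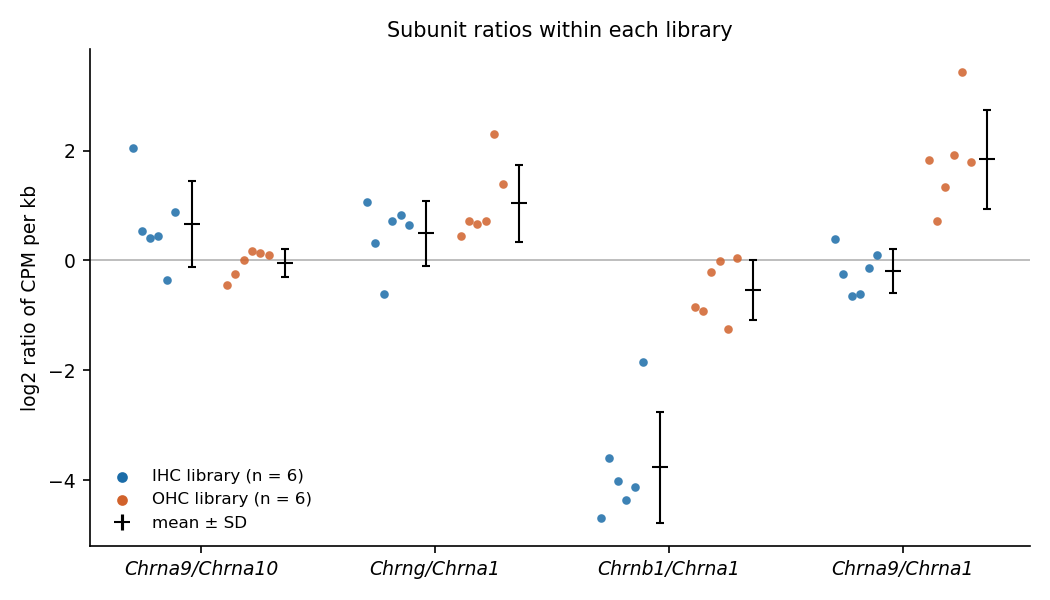
Log2 ratio of CPM per kilobase of exon for 4 pairs of receptor genes, 1 point per library (blue IHC, orange OHC), with the mean ± SD beside each group. The Chrnb1/Chrna1 and Chrna9/Chrna1 ratios are higher in all 6 OHC libraries than in any IHC library, and the other 2 pairs overlap.

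Rapsn encodes rapsyn, the scaffold under the muscle receptor. IHC libraries fell into 4 with 107 to 604 counts and 2 with 9 and 10 counts, and in CPM they ran from 0.227 through a median of 4.51 to 18.5, highest in IHC replicate 5. OHC libraries held 0 to 10 counts, at most 0.216 CPM. All 6 IHC libraries thus lay above all 6 OHC libraries, though IHC replicates 3 and 4 did so by a margin smaller than the level of 3 counts. IHCs averaged 5.83 ± 6.76 CPM and OHCs 0.0712 CPM, 81.9-fold apart, or 46.4-fold without IHC replicate 5 and 138-fold without OHC replicate 1. Rapsn was below the count filter. Without the filter, edgeR's quasi-likelihood test called it higher in IHCs (adjusted p = 0.00632), and DESeq2 did so as well (adjusted p = 1.58e-07). Per length, Rapsn was 0.00145 to 0.215 times Chrna1 in IHC libraries and at most 0.0104 times Chrna1 in OHC libraries.

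Musk had 1 count in IHC replicate 1, 3 counts in IHC replicate 4, 1 each in OHC replicates 2 and 3 and 0 in the other 8 libraries. The kinase gene thus had at most 3 counts in any library at this depth.

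Because Chrna1, Chrng and Rapsn are markers of muscle, 16 other skeletal muscle genes were examined for signs of muscle tissue in the pools. Of these, 7 (Ckm, Acta1, Myh8, Tnnt3, Tnni2, Myf5 and Myf6) had at most 3 counts in every library, and Tnnt3 and Tnni2 had 0 in all. The summed level of the 16 genes was 0.490 to 13.2 CPM in IHC libraries and 1.73 to 16.8 CPM in OHC libraries, ranges that overlapped. Of the 2 that were tested, Tnnc2 was called, higher in OHCs (edgeR's quasi-likelihood test, adjusted p = 0.0492), a call that was lost when any library but IHC replicate 3 was left out (adjusted p = 0.0694 to 0.108). Myod1 and Myog, transcription factors of the muscle lineage, had at most 17 and 18 counts. IHC replicate 5, which held the most Chrnd and Rapsn, also had the highest muscle sum among IHC libraries, mainly from Mylpf (11.7 CPM), and IHC replicate 6, second for Chrnd, had the lowest. These 2 libraries had the highest summed supporting cell markers among IHCs, 1437 and 1167 CPM against 344 to 609.8 CPM in the other 4. IHC replicate 1, second for Rapsn at 6.998 CPM, had the lowest supporting cell sum among IHCs, 344 CPM. The part of muscle or supporting cells in the Chrnd and Rapsn counts was not tested.

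Markers of other cells also differed between the groups. All 5 endothelial markers were called higher in OHCs, with sums of 0.0654 to 3.15 CPM in IHC and 9.45 to 169 CPM in OHC libraries. Of 8 neuronal markers, 4 (Snap25, Nefl, Nefm and Gata3) were called higher in IHCs, with sums of 1383 to 2293 CPM against 435 to 673 CPM, while Prph and Neurod1 had at most 2 and 5 counts in any library. Of 9 supporting cell markers, Gjb2 and Otog were called higher in IHCs and Prox1 higher in OHCs, with sums of 344 to 1437 and 392 to 801 CPM. The paper describes Prox1 as expressed in developing outer hair cells as well as supporting cells. Prox1 averaged 28.6 CPM among IHC and 217 CPM among OHC libraries, so the OHC sum does not measure supporting cells alone. Of 6 glial and 6 mesenchymal markers, 5 each were tested and 0 called by edgeR, 1 each had an unadjusted p under 0.05, and DESeq2 called 1 each (Fabp7 and Col3a1). None of the 5 erythroid markers passed the count filter. The sums of these 3 lists were at most 134, 38.5 and 3.20 CPM in any library. The part of these cells in the differences between the cell types given here was not tested.

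The genes next to the receptor genes were examined for differences along the same stretch of chromosome. Chrnd and Chrng are neighbours on the plus strand of chromosome 1, 4583 bases apart, yet 73419 counts fell on Chrng over the 12 libraries and 49 on Chrnd. Prss56, before Chrnd, had 0 counts. Eif4e2, a translation initiation factor gene 1204 bases after Chrng, averaged 47.7 ± 33.1 CPM among IHC and 38.8 ± 34.2 CPM among OHC libraries and was not called (log2 fold change -0.29, edgeR adjusted p = 0.763).

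Ecel1, which encodes a membrane peptidase of neurons and starts 48.1 kb before Chrng, was chosen after its values were seen. It ran from 196 through 233 to 359 CPM in IHC libraries and from 21.1 through 29.2 to 72.0 CPM in OHC libraries. Like Chrng, it separated the cell types without overlap, with a log2 fold change of -2.73 ± 0.30 (SE) and an adjusted p of 7.62e-06 by edgeR's quasi-likelihood test. Efhd1, which starts 59.7 kb after Chrng, was not called (adjusted p = 0.931), and Akp3 had 15 counts in all.

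**Figure D4:**
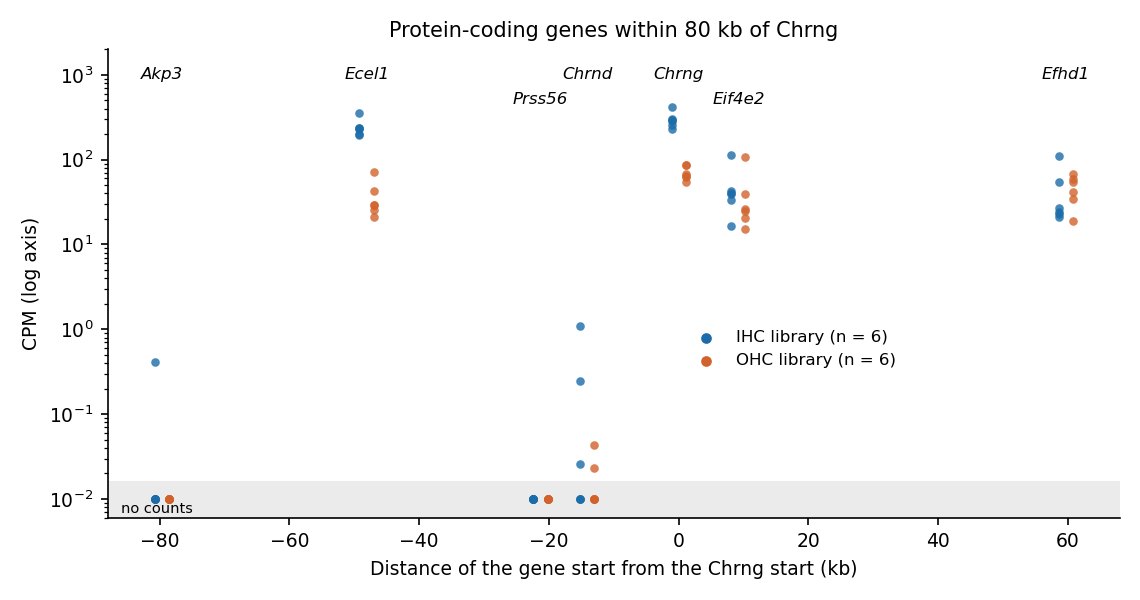
CPM on a log axis of the protein-coding genes that start within 80 kb of Chrng, placed by the distance in kb of their start from that of Chrng, with 1 point per library (blue IHC, orange OHC) and libraries without counts in the grey band. Ecel1 and Chrng separate IHCs from OHCs, Chrnd and Prss56 between them are at or near 0, and Eif4e2 and Efhd1 overlap.

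Over all 9 receptor genes, 16 other protein-coding genes are nearest on one side or the other. Of these, 13 were tested and 1 was called, higher in OHCs, against 2.44% of all tested genes. Art5, an ADP-ribosyltransferase gene 1776 bases from Chrna10 on the same strand, had 0 to 20 counts in IHC libraries and 56 to 600 in OHC libraries, and its log2 fold change of 4.70 ± 1.32 (SE) gave an adjusted p of 0.0380 by edgeR's quasi-likelihood test. That call was lost without IHC replicate 2, 3, 5 or 6 or OHC replicate 1, 2, 4 or 6, with an adjusted p of 0.0512 to 0.116 and a log2 fold change of 3.75 without OHC replicate 2. Fgf11, 120 bases from Chrnb1, was higher in IHCs by mean, 97.6 ± 70.9 against 37.7 ± 17.01 CPM, without passing (adjusted p = 0.0637). The neighbours Rbm47, Nup98, Wipf1, Chn1, Zbtb4, Mink1, Slc25a11, Celf1, Psmc3 and Lpar1 did not pass, and Rhoh and Svep1 were not tested.

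Of the other 9 nicotinic subunit genes, which encode receptors of neurons, 3 were tested and 0 were called by edgeR, 1 of them with an unadjusted p under 0.05, while DESeq2 tested 7 and called Chrna4 and Chrnb3. Chrnb2 was the highest of them in CPM, averaging 59.1 ± 19.2 CPM among IHC and 64.8 ± 25.7 CPM among OHC libraries, and Chrnb4 was at 35.8 ± 15.4 and 63.2 ± 17.2 CPM (edgeR adjusted p = 0.844 and 0.142). Both beta subunit genes were present in every library. Chrna3, their usual alpha partner in ganglia, had median levels of 0.0960 and 0.465 CPM among IHC and OHC libraries. Chrnb3, not tested under the count filter, had 0 counts in all 6 IHC libraries and 6 to 78 in the OHC libraries, at least 13.7-fold higher in OHCs by mean CPM against 3 counts per IHC library. Without the filter it was called (edgeR's quasi-likelihood test, adjusted p = 0.0124). Chrna2, Chrna4, Chrna5, Chrna6 and Chrna7 had median levels of at most 2.32 CPM in both cell types.

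Partners of the muscle receptor at the endplate were mostly expressed in both cell types. Of 15 such genes, 14 were tested and 1 was called, higher in IHCs, against 3.81% of all tested genes. Dtna, which encodes alpha-dystrobrevin of the dystrophin complex and was the highest of the list in CPM, ran from 1204 through 1509 to 1750.2 CPM in IHC libraries and from 702 through 862 to 948 CPM in OHC libraries. Its IHC libraries all lay above the OHC libraries, with a log2 fold change of -0.82 ± 0.16 (SE) and an adjusted p of 0.00288 by edgeR's quasi-likelihood test. Agrn and Lrp4, the agrin and agrin receptor genes, and Dok7, the adaptor of MuSK, were tested and did not pass, and Ache, the acetylcholinesterase gene, had at most 12 counts. The median log2 fold change of the tested genes of the list was -0.14, against -0.04 over all 13269 genes.

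Of 13 genes that assist the assembly or gating of nicotinic receptors, 9 were tested. Of these, 1 was called higher in IHCs, against 3.81% of all tested genes, and 5 had an unadjusted edgeR p under 0.05. DESeq2 tested 10 and called 4 (Tmie, Ly6h, Lypd6b and Lypd1). Tmie, which also belongs to the transduction channel complex of hair cells, ran from 120.2 through 168 to 338 CPM in IHC libraries and from 50.8 through 69.8 to 135 CPM in OHC libraries, ranges that overlapped slightly. Its log2 fold change was -1.17 ± 0.29 (SE) with an adjusted p of 0.0201 by edgeR's quasi-likelihood test, which rose to between 0.0513 and 0.0525 without OHC replicate 3, 4 or 6. Canx, the calnexin gene and the highest of the list in OHCs, was at 152 ± 32.9 and 222 ± 63.3 CPM and did not pass (adjusted p = 0.165). Tmem35a, the chaperone of neuronal receptors, had at most 1 count, whereas Ric3, a chaperone with a broader range, was at 50.3 ± 24.1 and 69.3 ± 9.12 CPM (adjusted p = 0.482).

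The genes through which hair cells answer efferent acetylcholine include the calcium-gated potassium channels, the ryanodine receptors that release stored calcium and the SERCA pumps that refill the stores. All 7 were tested, 2 were called higher in IHCs and 1 higher in OHCs, against 3.81% and 2.44% of all tested genes. Kcnn2, the SK2 channel gene coupled to the efferent receptor, averaged 24.4 ± 11.1 CPM among IHC and 23.5 ± 7.15 CPM among OHC libraries (log2 fold change -0.06 ± 0.39, edgeR adjusted p = 0.950). Atp2a2, the SERCA2 gene and the highest of the list, was at 307 ± 51.3 and 393 ± 43.3 CPM and did not pass (adjusted p = 0.237).

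Atp2a3, the SERCA3 gene, ran from 95.6 through 147 to 220.2 CPM in IHC libraries and from 0.983 through 6.21 to 17.4 CPM in OHC libraries. These ranges were well apart, and its log2 fold change was -4.33 ± 0.62 (SE) with an adjusted p of 2.05e-04. Kcnma1, the BK channel gene, averaged 53.8 ± 38.2 and 7.10 ± 8.86 CPM, and its log2 fold change was -2.92 ± 0.67 (SE) with an adjusted p of 0.0123 in the same edgeR test. Without OHC replicate 3 it was -3.89 (edgeR adjusted p = 0.00101). Ryr1, the ryanodine receptor gene of skeletal muscle, averaged 0.649 ± 0.898 CPM among IHC and 9.19 ± 8.26 CPM among OHC libraries. Its log2 fold change was 3.81 ± 1.08 (SE), and the adjusted p of 0.0392 by edgeR rose to between 0.0524 and 0.105 when IHC replicate 1, 2, 3, 5 or 6 or OHC replicate 1, 2, 4 or 5 was left out. Without IHC replicate 4 the log2 fold change was 4.80 (edgeR adjusted p = 0.0166).

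**Figure D5:**
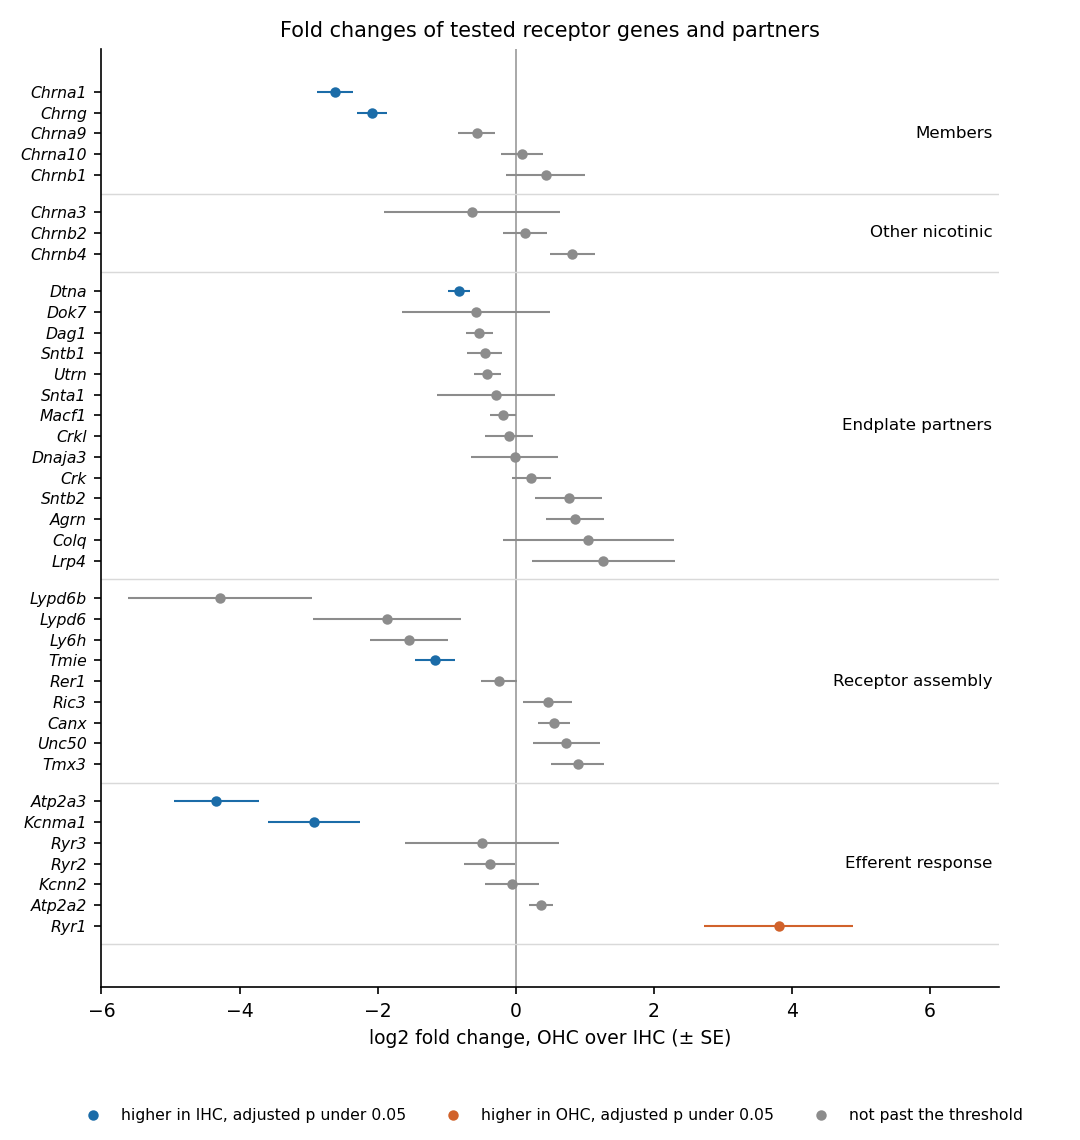
Log2 fold change of OHCs over IHCs (± SE, edgeR) for the 5 tested receptor genes and the tested genes of 4 lists of related genes. Blue marks genes called higher in IHCs, orange genes called higher in OHCs and grey those not past the threshold. Chrna1 and Chrng lie at -2.62 and -2.08, apart from the other tested subunit genes.

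Genes of acetylcholine release were at or near 0 in the pools. Slc18a3 and Slc5a7, the vesicular acetylcholine and choline transporter genes, had 0 counts in every library, and Chat, the choline acetyltransferase gene, had at most 1. None of the 5 muscarinic receptor genes passed the count filter. Chrm4 was the highest, with 1 to 37 counts in IHC and 1 to 226 counts in OHC libraries.

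The genes whose log2 CPM over the 12 libraries was most like that of Chrna1 were Fry (Pearson r = 0.977), Heg1 (r = 0.968), Tbx2 (r = 0.968), Tafa3 (r = 0.965) and Nalf1 (r = 0.964), all 5 of which were called higher in IHCs. The libraries form 2 groups by cell type, which these genes and Chrna1 share. For Chrna9 the most alike were Ddx6 (r = 0.927), Gm10221 (r = 0.905), Ergic1 (r = 0.905), Gm13436 (r = 0.894) and Cdc34 (r = 0.888), of which Ergic1 was called (edgeR adjusted p = 0.0392). That call was lost without IHC replicate 1, 3 or 6 or OHC replicate 1, 2, 3, 4 or 6 (adjusted p = 0.0516 to 0.0877).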

How the data were processed

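For each of the 12 libraries the authors deposited unnormalized counts, the number of reads on each gene. By the study's methods, reads were aligned in 2 passes with STAR and counted with HTSeq in its intersection-nonempty mode on GRCm39 with GENCODE vM27. The submitters' processing notes also name Trimmomatic. Tool versions are not given in the sources used here, and the methods name no strand setting for HTSeq, which by default counts by strand. Ribosomal RNA was depleted and cDNA was amplified from random primers, without molecular identifiers, so count-based floors cover counting error only.

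Groups and replicate numbers came from the sample titles. HTSeq's 5 summary lines, 24.2% to 46.1% of all counts, were left out. The main test was that of edgeR 4.0.16 in R 4.3.3 (filterByExpr with its minimum count at 10 and minimum total at 15, TMM, glmQLFit and glmQLFTest, Benjamini-Hochberg over all 13269 genes tested, threshold 0.05), with DESeq2 1.42.0 as an alternative. The fit was tested on simulated data with known fold changes. CPM was scaled by the TMM library size with no pseudocount. Likeness between genes used log2 CPM with a prior count of 2. Exon lengths, overlaps and neighbours were taken from GENCODE vM39 (GRCm39), in which 98.8% of the gene identifiers have a symbol, and promoter sequences are those of RefSeq. Of 8 planned subunit ratios, the 4 whose genes had at least 10 counts in every library were tested by exact permutation in Python 3.11.15, and the others are given as values.

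The members and gene lists were chosen with earlier results of these data known. Named were all members, the genes called and the gene highest in CPM in each list that was not of markers, the nearest protein-coding gene on each side of a member, and the 5 genes most alike to Chrna1 and to Chrna9. The alternatives were RLE normalization, edgeR's exact test, DESeq2, no count filter, at least 10 counts in every library, removal of ribosomal RNA genes, a replicate block, each library left out, and for ratios other lengths or 0.5 added counts. The canonical transcript length was added after the data were seen.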

Additional observations from a re-analysis of the deposited data

Results flagged for a closer look

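In 8 of 26 groups of 6 libraries examined, over the members and the tested ratios, 1 library lay far from the others by Dixon's test. Chance gives this in about 1 of 20 groups of normally distributed values, and whether the values here follow that form was not tested. The rate does not apply to Chrne, where 5 of 6 libraries of each group held 0 counts and any count stands apart by construction. Nor does it apply to Chrnd in IHCs, where 3 of 6 held 0. For Chrna1 these were IHC replicate 3, at 385 CPM against 183 to 220.0 in the other IHC libraries, and OHC replicate 5, at 19.0 CPM against 35.7 to 45.7. For Chrng it was IHC replicate 1, the library richest in ribosomal RNA, at 422 CPM against 233 to 301. Before scaling, its 6446 counts on Chrng were the fewest among IHC libraries, so this high level rests on its small library size. Each of these kept to its own side, since no OHC library reached an IHC library for either gene.

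For Chrnb1, IHC replicate 6 stood at 32.6 CPM against 4.84 to 13.7 in the other IHC libraries. The same library held the only Chrne counts among IHCs, at 0.2997 CPM against 0, and OHC replicate 3 held the only Chrne counts among OHCs, at 0.488 CPM against 0. IHC replicate 5 stood apart for Chrnd, at 1.103 CPM against 0 to 0.245, and for Rapsn, at 18.5 CPM against 0.227 to 6.998. The causes were not tested.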

How the results depend on the processing

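Chrna1 and Chrng were called higher in IHCs under all 19 alternatives, with log2 fold changes of -2.69 to -2.42 and -2.16 to -1.97, and no member was called higher in OHCs under any. The count of members called was 2 throughout, except without the count filter and with DESeq2, where Rapsn made it 3. Chrna9 stayed at -0.72 to -0.45 without being called. Among genes called higher in IHCs, 506 by the fit described, the count was 893 without the filter and 1339 with DESeq2, and among those higher in OHCs, 324, it was 519 with edgeR's exact test, 918 without the filter and 1590 with DESeq2. The share of calls higher in IHCs was 61.0%, against 45.7% with DESeq2, 49.3% without the filter and 67.7% with at least 10 counts in every library. Leaving out 1 library gave 369 to 551 and 225 to 402 calls. The log2 ratio of Chrna9 to Chrna10 differed by -0.91 without IHC replicate 5, where the exact permutation test passed, against -0.71 with all libraries, and leaving out 1 library gave differences of -0.91 to -0.43 for it, 0.29 to 0.67 for Chrng/Chrna1, 3.05 to 3.62 for Chrnb1/Chrna1 and 1.71 to 2.25 for Chrna9/Chrna1, of which the last 2 passed in every case. Among the genes recomputed, signs turned only for log2 fold changes that were never called: Chrna10 (-0.078 to 0.25), Chrnb2 (-0.065 to 0.25), Kcnn2 (-0.23 to 0.17), Efhd1 (-0.067 to 0.62) and Eif4e2 (-0.92 to 0.15) when 1 library was left out. Same-numbered libraries did not deviate together (correlations of -0.03 to 0.02). Correlations between libraries of different numbers reached at most 0.053, so this check could not tell whether the pools were paired. With a replicate block there were 512 and 391 calls, and Kcnn2 was at 0.0058. Tnnc2 lost its call with RLE (adjusted p 0.0507), without the filter (0.129) and without ribosomal RNA genes (0.0509), and Ergic1 with the block (0.0605). Fgf11 passed under 6 alternatives (adjusted p 0.0268 to 0.0415). At this depth, 3 counts limit what can be said of Chrnd, Chrne and Musk. The causes of these changes were not tested.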
